A study of Homo sapiens with 6 samples.

Results

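The glutathione and ferroptosis defence genes described here were 10 genes picked by symbol: GPX4, GCLC, GCLM, GSS, GSR, ACSL4, AIFM2, TFRC, FTH1 and HMOX1. All 10 had a row in each of the count tables, which hold 19923 genes, and all 10 were expressed highly enough to be tested. The study sequenced poly(A) RNA from Kelly cells, an established human neuroblastoma line with amplified MYCN and a genotype given as wild type. One group of 3 libraries came from cells given a control siRNA (siControl), and the other group of 3 from cells given an siRNA against METTL3 (siMETTL3), in both cases 72 hours earlier by lipid transfection. METTL3 is the enzyme subunit that methylates adenosines in mRNA (N6-methyladenosine), so the single comparison asks how its depletion changes the level of these transcripts. The labels name no sequence for either siRNA and do not say whether the 3 libraries of a group came from separate cultures, so p-values measure the spread between these libraries, which may be technical.

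Ferroptosis is a form of cell death driven by iron-dependent peroxidation of membrane phospholipids that carry polyunsaturated fatty acids. Cells hold it back mainly through glutathione, a tripeptide made from glutamate, cysteine and glycine, which GPX4 uses to reduce lipid peroxides to alcohols. Iron that enters through the transferrin receptor and is not stored in ferritin feeds the peroxidation. Neuroblastoma cells with high MYCN are known in the field for a strong need for cysteine and glutathione.

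Library totals ran from 15430000 counts (siControl replicate 3) to 21565013 counts (siMETTL3 replicate 2). METTL3 itself fell to 61.0% of its control level, from 54.2 ± 1.80 to 33.04 ± 1.27 CPM (mean ± SD, n = 3; read counts divided by library sizes that were scaled with TMM), a partial depletion with a false discovery rate (FDR) of 4.68e-06 in edgeR's quasi-likelihood test. TOX4 overlaps 7.9% of the METTL3 span, and reads in shared stretches and in introns were counted. The remaining METTL3 level may therefore include such reads. All 12 markers of sympathetic neuroblastoma, stood at 41.5 CPM or more in every library. They moved apart between the groups: 8 rose, among them TH (log2 fold change 1.52) and MYCN (0.62), and 2 fell, ISL1 (-1.18) and CHGB (-0.56); these were chosen after their values were seen. Their summed level, of which MYCN was the largest part, ran from 7220.3 to 7614.1 CPM in siControl and from 10549 to 11128 CPM in siMETTL3. The 18 markers of blood, endothelial, epithelial, fibroblast, liver and red cells summed to between 10.6 and 14.7 CPM in siControl and between 14 and 14.8 CPM in siMETTL3. KRT5 was at 0 in every library, 4 to 10 of the 18 were at 0 in any one library, and EPCAM (up to 144 counts), COL1A1 (117) and COL3A1 (62) had the highest counts. Of the 4 of these 18 that could be tested, COL1A1 alone was called, with 2.96 ± 1.27 CPM in siControl and 5.26 ± 0.471 CPM in siMETTL3 (edgeR FDR 0.02). The part of either marker list in the results below was not tested.

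Of the 10 genes, 4 fell (GPX4, FTH1, GSS and GSR), 2 rose (ACSL4 and HMOX1) and 4 did not pass the threshold of an FDR under 0.05 (GCLC, GCLM, AIFM2 and TFRC). Of all 15311 tested genes, 37.8% passed the same threshold, with 19.2% lower and 18.6% higher. The median log2 fold change (siMETTL3 minus siControl) of the 10 genes was -0.03, against -0.0021 over all tested genes. It lies between the values of GCLC (-0.04) and AIFM2 (-0.02), neither of which was called. In 6 of the 10 genes the groups did not overlap in CPM, which also held for 49.9% of all tested genes. The 4 falls rested on the libraries to different degrees: 1 remained without siMETTL3 replicate 2, and 2 remained without siControl replicate 2, without siMETTL3 replicate 1 or without siMETTL3 replicate 3. Of the 2 rises, 1 remained without siMETTL3 replicate 3, and without siControl replicate 3 there were 3 rises, TFRC being the further one. Because the samples were bulk cultures, fewer cells of a type and less RNA per cell cannot be told apart.

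**Figure D1:**
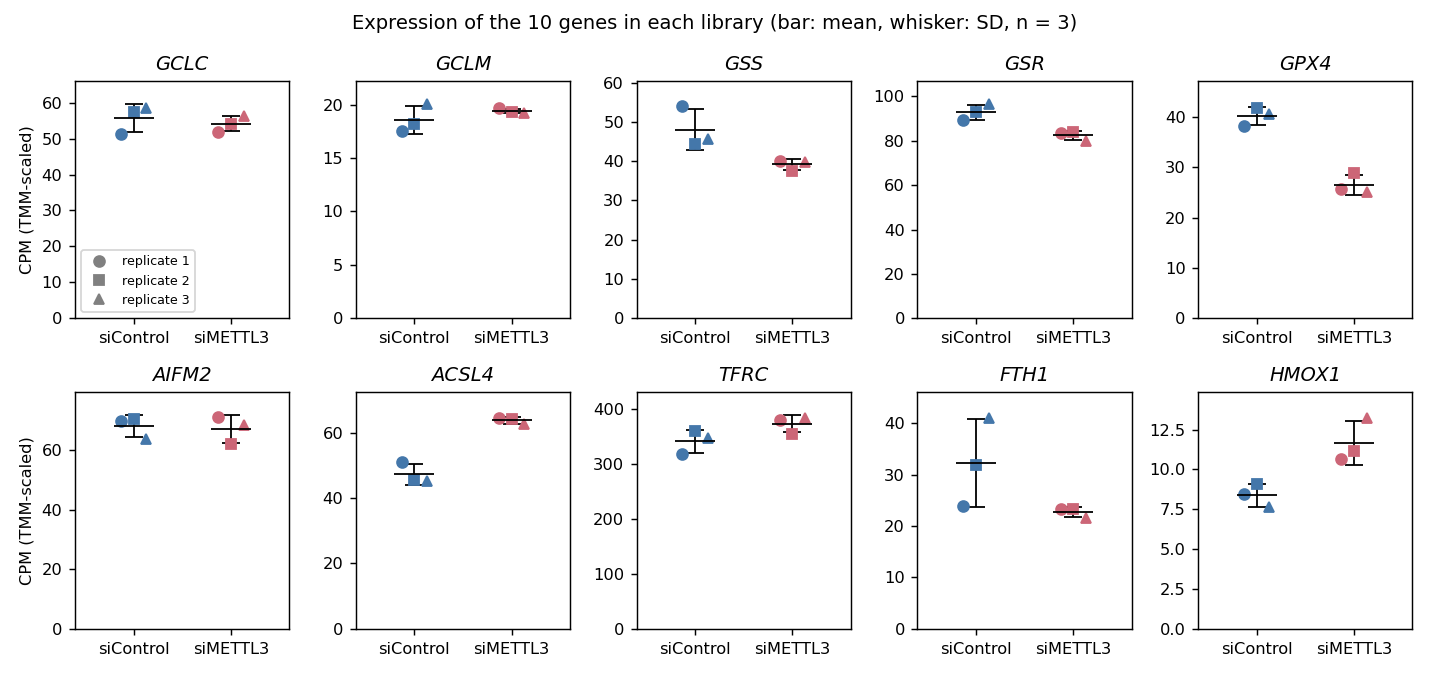
Expression of the 10 genes in CPM (vertical axes, linear from 0, each gene on its own scale) in the siControl and siMETTL3 libraries; points are libraries, bars are means and whiskers are the SD of 3 libraries. GPX4, GSS, GSR and FTH1 lie lower and ACSL4 and HMOX1 higher in all 3 siMETTL3 libraries, while the groups overlap for GCLC, GCLM, AIFM2 and TFRC.

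GPX4 (chromosome 19, 1103926 to 1106791, plus strand), the selenium-containing peroxidase that reduces phospholipid hydroperoxides inside membranes, fell with the lowest FDR of the 10 genes. Its level was 38.1, 41.7 and 40.6 CPM in siControl replicates 1, 2 and 3 and 25.7, 28.8 and 25.2 CPM in siMETTL3 replicates 1, 2 and 3. The highest siMETTL3 library thus stayed well below the lowest siControl library. The log2 fold change was -0.60 with a standard error (SE) of 0.0818 (edgeR FDR 8.56e-05), so that 66.2% of the control level remained. Leaving out single libraries gave -0.66 to -0.56, and GPX4 passed the threshold in every alternative fit. Its span overlaps no other gene of the tables, and no copy covering at least 50% of its coding sequence was found elsewhere in the genome. GPX4 mRNA carries a UGA codon that is read as selenocysteine, the residue at the active site of the enzyme. In the canonical transcript of GENCODE release 44 it is codon 73, printed here in capitals within its reading frame (GRCh38, chr19:1105391-1105420, plus strand), because some of the selenoprotein genes described below make or insert this residue:
GPX4 selenocysteine codon: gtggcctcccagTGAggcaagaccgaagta

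Over the 6 libraries, the 3 tested genes whose log2 CPM followed GPX4 most closely were MXRA8 (Pearson r 0.9983), TSC22D3 (0.9975) and THSD8 (0.9975). This is a description over 6 libraries that fall into the groups compared, and it carries no test. MXRA8 fell with a log2 fold change of -0.63 and TSC22D3 with one of -0.70, against -0.60 in GPX4, whereas THSD8 changed less (-0.23). The spans of TSC22D3 and THSD8 overlap other genes, and the THSD8 call was lost with offsets for GC content and length or intron length and without siControl replicate 2 or siMETTL3 replicate 1 or 3.

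Glutathione is built in sequence by glutamate-cysteine ligase, whose catalytic subunit is GCLC and whose modifier subunit is GCLM, and by glutathione synthetase (GSS); glutathione reductase (GSR) then regenerates it from its oxidised form. The ligase subunits did not pass the threshold, whereas the synthetase and the reductase fell. GCLC (chromosome 6, 53497341 to 53616970, minus strand) was measured at 51.3, 57.6 and 58.4 CPM in siControl and at 52.0, 54.1 and 56.2 CPM in siMETTL3. These ranges overlapped, and the log2 fold change of -0.04 had a 95% confidence interval from -0.19 to 0.11 (edgeR FDR 0.681).

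GCLM (chromosome 1, 93885199 to 93909456, minus strand) was measured at 17.5, 18.2 and 20.0 CPM in siControl and at 19.6, 19.3 and 19.2 CPM in siMETTL3. The siMETTL3 values fell inside the siControl range, with a log2 fold change of 0.07 and a 95% confidence interval from -0.14 to 0.27 (edgeR FDR 0.622). Changes of the size seen in GPX4 thus lie outside the intervals of both subunits.

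GSS (chromosome 20, 34928432 to 34956027, minus strand) stood at 54.1, 44.4 and 45.6 CPM in siControl and at 40.1, 37.5 and 39.9 CPM in siMETTL3. siControl replicate 1 was the high library, but the other two also lay above every siMETTL3 library. The log2 fold change was -0.30 (SE 0.0835, edgeR FDR 0.0124), it shrank to -0.20 when the high library was left out, and the call was lost without siMETTL3 replicate 2 (edgeR FDR 0.0626). GSS overlaps MYH7B by 0.79% of its span, with none of the canonical GSS transcript inside the overlap.

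GSR (chromosome 8, 30678066 to 30727846, minus strand) went from 89.6, 92.8 and 96.4 CPM in siControl to 83.4, 83.8 and 80.0 CPM in siMETTL3. The groups did not overlap, but the change was the smallest of the called ones, with a log2 fold change of -0.17 (SE 0.0584, edgeR FDR 0.0315). GSR was not past the threshold in 4 of the 6 fits that left out 1 library: those without siControl replicate 2 (edgeR FDR 0.0904) and without siMETTL3 replicate 1, 2 or 3 (0.0832, 0.0639 and 0.12). DESeq2 (adjusted p = 0.0522) and scaling by total counts alone (edgeR FDR 0.0551) also left it above the threshold.

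**Figure D2:**
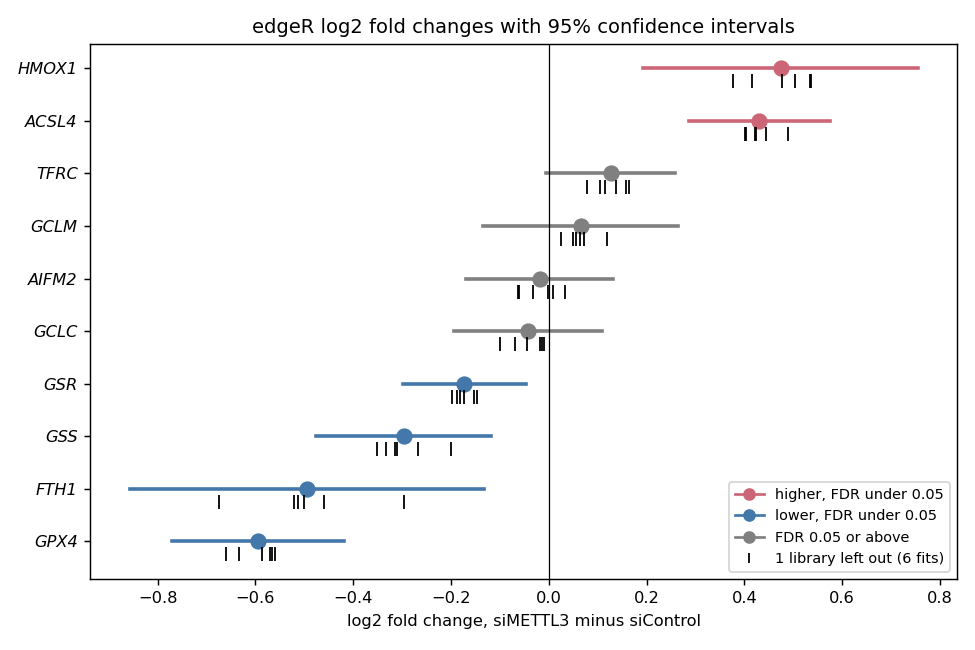
Log2 fold changes of the 10 genes, siMETTL3 minus siControl (horizontal axis), from edgeR; points are estimates, thick lines are 95% confidence intervals, colours give the call at an FDR under 0.05, and black ticks under each line are the 6 fits that each leave out 1 library. GPX4 and ACSL4 lie farthest from 0 relative to their intervals, and the ticks of FTH1 spread most, from -0.67 to -0.30.

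AIFM2, also called FSP1, keeps ubiquinone in its reduced form at membranes and so quenches lipid radicals without glutathione. AIFM2 (chromosome 10, 70098223 to 70132934, minus strand) was measured at 69.7, 70.5 and 63.6 CPM in siControl and at 71.1, 62.0 and 68.4 CPM in siMETTL3. The groups overlapped over nearly their whole range, and the log2 fold change was -0.02 with a 95% confidence interval from -0.17 to 0.13 (edgeR FDR 0.86). MACROH2A2 on the opposite strand covers 40.5% of the AIFM2 span but 12 bases (0.4%) of its canonical transcript. MACROH2A2 was measured at 129 ± 6.84 CPM in siControl and 118 ± 0.425 CPM in siMETTL3 (log2 fold change -0.13, edgeR FDR 0.0879), and how many reads the genes share was not measured.

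GCLM and AIFM2 were the only 2 of the 6 genes with an entry in the RefSeq promoter table (GRCh38.p14; GPX4, GCLC, GCLM, ACSL4, AIFM2 and TFRC) that held the letters of an antioxidant response element, TGACNNNGC on either strand, between 250 bases before and 50 bases after a start site. This element is bound by NRF2, the transcription factor of the oxidative stress response. The same letters occurred in 13.3% of the 35116 promoters in that table. A match is a description and does not show binding. TXNRD1, a related gene described below, also held these letters, and it fell (log2 fold change -0.22, edgeR FDR 0.00582). The matches of GCLM and AIFM2 are printed on the gene's strand with 10 bases on each side. The match in capitals reads there as the reverse complement (minus strand, chr1:93909446-93909474 and chr10:70132829-70132857):
GCLM: tacgatttctGCTTAGTCAttgtcttcca
AIFM2: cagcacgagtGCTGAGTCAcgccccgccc

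Neither the MYC E-box CACGTG (7.26% of all promoters) nor the letters TGATGNAA of an ATF4 and C/EBP element (3.62%), each searched on both strands, occurred in the windows of these 6 genes. The ATF4 and C/EBP letters did occur in the window of CHAC1, described below, which fell (log2 fold change -1.80, edgeR FDR 2e-06). Whether any of these letters bear on a change was not tested.

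ACSL4 acts on the other side of the balance: it couples polyunsaturated fatty acids to coenzyme A, which lets them enter the phospholipids that are peroxidised in ferroptosis. ACSL4 (chromosome X, 109624244 to 109733403, minus strand) rose from 50.9, 45.6 and 45.3 CPM in siControl to 64.6, 64.2 and 62.5 CPM in siMETTL3. The 3 siMETTL3 libraries lay close together and above all siControl libraries. The log2 fold change was 0.43 (SE 0.0674, edgeR FDR 0.000243), or 135% of the control level, and single omitted libraries moved it between 0.40 and 0.49. ACSL4 shares 0.85% of its span with KCNE5, which had at most 6 counts in a library. The fit restricted to genes without overlaps does not include ACSL4, and its call held in every other fit.

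Iron enters cells through the transferrin receptor (TFRC), is stored in ferritin, of which FTH1 encodes the heavy chain, and is set free from heme by heme oxygenase (HMOX1). TFRC and FTH1 are textbook targets of the iron regulatory proteins, which bind hairpins called iron responsive elements; in the 5′ UTR of ferritin mRNA they block translation, and in the 3′ UTR of TFRC mRNA they protect the transcript from decay. A search of the 10 canonical transcripts for a bulged C, 5 stem pairs and the loop CAGTGN found 1 match in the 5′ UTR of FTH1, 4 in the 3′ UTR of TFRC and 0 in the other 8 genes. Among 14591 tested genes with a canonical transcript, 1.5% held at least 1 match, and TFRC was the only one with at least 4. The bulge and the loop are in capitals, in transcript order (GRCh38, minus strands; FTH1 chr11:61967576-61967604; TFRC chr3:196050981-196051009, chr3:196050577-196050605, chr3:196050512-196050540 and chr3:196050465-196050493):
FTH1 5′ UTR: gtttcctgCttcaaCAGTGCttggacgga
TFRC 3′ UTR site a: ataattatCggaagCAGTGCcttccataa
TFRC 3′ UTR site b: cacattatCgggagCAGTGTcttccataa
TFRC 3′ UTR site c: gtctgtatCggagaCAGTGAtctccatat
TFRC 3′ UTR site d: gtaattatCgggaaCAGTGTttcccataa

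TFRC (chromosome 3, 196027183 to 196082096, minus strand) stood at 318, 358 and 347 CPM in siControl and at 378.5, 354 and 384 CPM in siMETTL3. siMETTL3 replicates 1 and 3 lay above all siControl libraries and replicate 2 lay inside their range. The log2 fold change was 0.13 with a 95% confidence interval from -0.0051 to 0.26 (edgeR FDR 0.122). TFRC passed the threshold without siControl replicate 3 (log2 fold change 0.14, edgeR FDR 0.0394) and, with all libraries, when GC and length of the transcript entered as an offset (0.19, edgeR FDR 0.00481).

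FTH1 (chromosome 11, 61959718 to 61967634, minus strand) was measured at 24.0, 31.9 and 41.0 CPM in siControl and at 23.2, 23.4 and 21.5 CPM in siMETTL3. The siControl libraries differed among themselves by far more than the siMETTL3 libraries, and siControl replicate 1 was only just above the highest siMETTL3 library. The log2 fold change was -0.50 (SE 0.162, edgeR FDR 0.0356), with the largest SE and FDR of the 6 called changes. Without siControl replicate 3 it was -0.30 and still past the threshold, and without siControl replicate 1 it was -0.67. The call was lost without siControl replicate 2 (edgeR FDR 0.08) and without siMETTL3 replicate 1, 2 or 3 (0.0798, 0.0794 and 0.109), and with all libraries in limma-voom (adjusted p = 0.066), with no filter on low counts (0.0602) and with offsets for GC content and length (0.06) or intron length (0.0621).

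The FTH1 counts carry further limits. The FTH1 coding sequence had 16 copies elsewhere in the genome that aligned over at least 50% of its length, 11 of them at 95% identity or more and the closest at 97.6%, whereas none of the other 9 genes had such a copy. The authors' counting, per the file headers, did not include reads aligned at several places. The FTH1 level here, 26.8 CPM per kb of transcript in siControl, is therefore a level of uniquely placed reads. How many FTH1 reads were left out was not measured. BEST1, on the opposite strand, covers 73.2% of the canonical FTH1 transcript, and reads in the shared part were counted for both genes. The raw counts of FTH1 were 517, 637 and 617 in siControl and 478, 509 and 442 in siMETTL3. Those of BEST1 were 395, 439 and 415 and 358, 384 and 309, or between 0.673 and 0.764 of the FTH1 count in every library. BEST1 had a log2 fold change of -0.43 (edgeR FDR 0.0238), and its change cannot be told apart from that of FTH1.

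**Figure D3:**
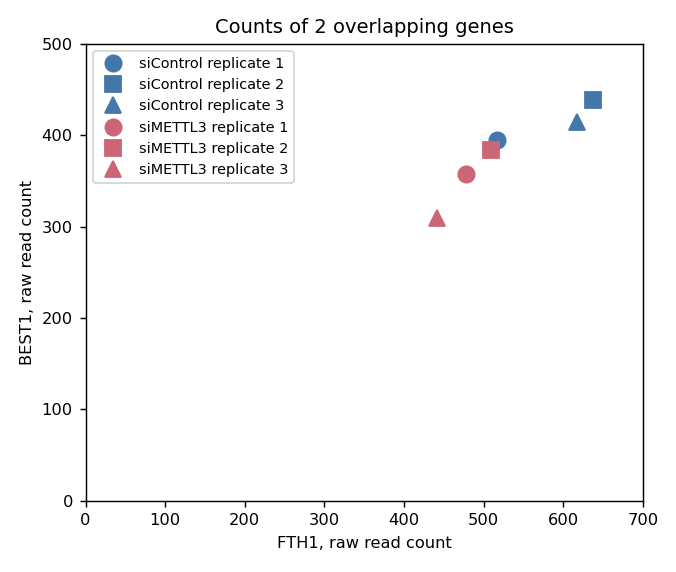
Raw read counts of FTH1 (horizontal axis) and of BEST1 (vertical axis) in the 6 libraries, both axes from 0; colours give the group and shapes the replicate. The points fall near one line, with BEST1 at 0.673 to 0.764 of the FTH1 count, and 73.2% of the FTH1 transcript lies inside the BEST1 span.

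HMOX1 (chromosome 22, 35380361 to 35394207, plus strand), which degrades heme to biliverdin, carbon monoxide and iron, was the member with the fewest reads, 115 to 272 per library. It rose from 8.44, 9.06 and 7.63 CPM in siControl to 10.6, 11.2 and 13.2 CPM in siMETTL3, with no overlap between the groups. The log2 fold change was 0.47 (SE 0.131, edgeR FDR 0.0111), or 139% of the control level. siMETTL3 replicate 3 was the high library, and without it the log2 fold change was 0.38 and not past the threshold (edgeR FDR 0.0672).

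Per kilobase of canonical transcript, the level in siControl ran from 68.0 CPM per kb in TFRC and 47.2 in GPX4 to 5.39 in HMOX1 and 3.80 in GCLM. Neighbours in this order were separated in all 3 siControl libraries except GSR and FTH1 (30.6 and 26.8) and FTH1 and GSS (26.8 and 25.2). TFRC and GPX4 also led in siMETTL3, at 74.3 and 31.2 CPM per kb, where GPX4 still exceeded GSR (27.2) in every library. There the mean of AIFM2 stood above those of GSS and FTH1, and AIFM2 and GSS (21.4 and 20.5) were the only neighbours whose libraries overlapped. GCLC exceeded GCLM in every library, at 14.7 against 3.80 CPM per kb in siControl. Since the authors counted reads over whole gene spans, these levels include any intronic reads. The level of FTH1 leaves out reads aligned at several places, as described above, so its place in the order is uncertain.

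**Figure D4:**
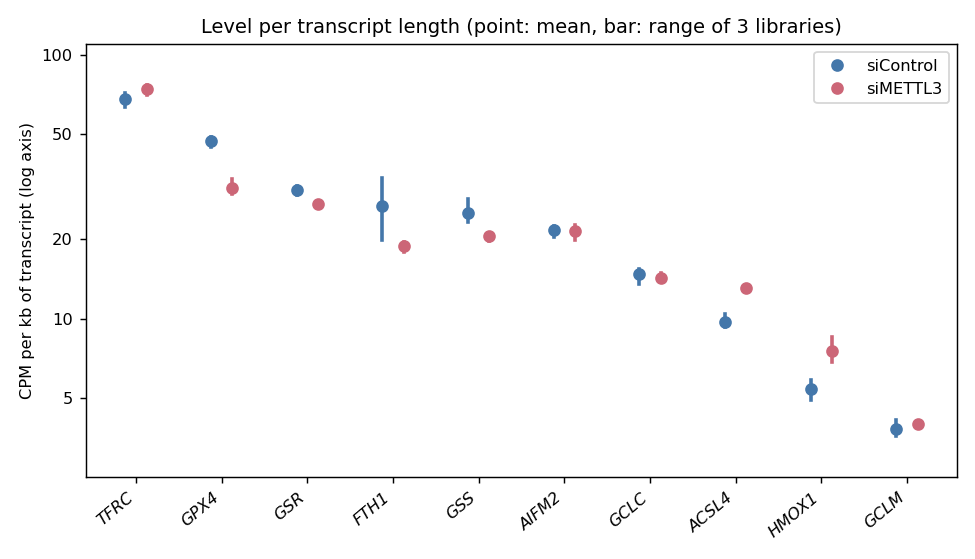
Level per transcript length of the 10 genes (vertical axis, CPM per kb of canonical transcript, log axis), ordered by the siControl mean; points are means and vertical bars the range of 3 libraries. TFRC and GPX4 lead in both groups, GPX4 drops toward GSR in siMETTL3, and ACSL4 approaches GCLC.

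The base sequence GGACT, a common form of the site that the METTL3 complex methylates, occurred from 0 times (GPX4 and HMOX1) to 6 times (AIFM2 and TFRC) in the canonical transcripts. Per kb this was 0 in GPX4 and HMOX1, 0.53 in GCLC, 0.61 in GCLM and 0.66 in GSR, all below the median of 0.929 over the tested genes. It was 1.02 in ACSL4, 1.2 in TFRC, 1.66 in FTH1, 1.91 in AIFM2 and 2.1 in GSS, all above it. Methylation itself was not measured in these libraries, and the letters do not show that a site is used. Only this form was counted, in the canonical transcript of each gene, so a count of 0 does not show that a gene lacks sites.

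Genes around the 10 were counted in 8 lists, beside a background of 37.8% called and a median log2 fold change of -0.0021. No list was tested as a set. The lists were chosen with earlier results of these data known, so their shares are descriptions and not independent evidence. In the list of cystine uptake and cysteine supply, 7 of 8 tested genes fell and 0 rose (87.5% called, median -0.38), and leaving out single libraries left 6 or 7 falls. Its largest fall was that of SLC7A11, the cystine-glutamate exchanger that supplies cysteine for glutathione, which went from 57.1, 58.3 and 69.4 CPM in siControl to 27.1, 26.2 and 27.1 CPM in siMETTL3. All siMETTL3 libraries lay below 50% of any siControl library, and the log2 fold change was -1.20 (SE 0.0836, edgeR FDR 2.39e-07). Its partner chain SLC3A2 (-0.28, edgeR FDR 0.00138), MAT2A, which makes S-adenosylmethionine (-0.38, 0.000302), and AHCY, which hydrolyses S-adenosylhomocysteine (-0.28, 0.000913), also fell. SLC1A5, named after its value was seen, was the only tested gene of the list not called.

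Of 35 tested genes for glutathione use and breakdown, 11 fell and 5 rose (45.7% called), with a median of -0.05. With the GC and length offset the balance turned to 6 falls and 8 rises. Without siControl replicate 2 there were 7 falls. The number of rises was 0 without siMETTL3 replicate 1, 2 without siControl replicate 2 or siMETTL3 replicate 2, 3 without siControl replicate 3 and 8 without siControl replicate 1. CHAC1, which degrades glutathione in the cytosol, fell from 15.6, 18.3 and 16.8 CPM to 4.47, 3.86 and 6.23 CPM. The groups were far apart, and its log2 fold change was -1.80 (edgeR FDR 2e-06). The glutathione transferase GSTK1 (-0.51, edgeR FDR 0.00045) and the mitochondrial glutaredoxin GLRX5 (-0.49, 0.000517) fell as well.

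Of 19 tested thioredoxin, peroxiredoxin and related genes, 10 fell and 1 rose (57.9% called, median -0.19). The rise was that of TXNIP (log2 fold change 0.21, edgeR FDR 0.0256), named after its value was seen. With 1 library left out, 7 to 11 fell, and 0 rose without siControl replicate 1 or siMETTL3 replicate 2 or 3. PRDX6, a peroxiredoxin that acts on phospholipid hydroperoxides, had 120 ± 7.49 CPM in siControl and 70.7 ± 1.59 CPM in siMETTL3, with a log2 fold change of -0.76 at an edgeR FDR of 1.05e-06. The stress-inducible SESN2 (-0.74), the mitochondrial PRDX3 (-0.51) and the thioredoxin reductase TXNRD1 (-0.22, edgeR FDR 0.00582) also fell.

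Of 25 tested NRF2 regulators and classical targets, 6 fell and 1 rose (median -0.03), a share of 28.0% called. The list leaves out members such as GCLM and genes placed in other lists such as TXNRD1. Its share thus depends on how genes were assigned to lists. With the GC and length offset 7 fell and 4 rose. There were 3 falls without siControl replicate 2, and 2 genes rose without siControl replicate 1 or 3 but 0 without any one of the others. NFE2L2, which encodes NRF2, did not pass (log2 fold change -0.12, edgeR FDR 0.0893), but passed with the intron length offset (-0.16, 0.0402) and was near 0 with the GC and length offset (-0.02). The target NQO1 did not pass either (-0.10, 95% confidence interval -0.32 to 0.12, edgeR FDR 0.466). KEAP1, which directs NRF2 to degradation (-0.27, edgeR FDR 0.00832), and BACH1, which competes with it on DNA (-0.22, 0.00589), fell; without siMETTL3 replicate 1 KEAP1 was above the threshold (edgeR FDR 0.057). The fall of the sugar nucleotide enzyme UGDH was larger (-0.45, edgeR FDR 0.00019).

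Of 30 tested iron and heme genes, 6 fell and 5 rose (36.7% called against 37.8% of all tested genes, median -0.05). FTL, the ferritin light chain, fell from a mean of 324 ± 9.48 CPM to one of 267 ± 2.83 CPM, a difference of -0.28 in log2 with an edgeR FDR of 0.00103, and NCOA4, the receptor that delivers ferritin for degradation, fell by 0.40 on the log2 scale (edgeR FDR 0.000194). FTL had 1 copy elsewhere at 95% identity or more. The iron regulatory proteins were not past the threshold, with log2 fold changes of -0.05 for IREB2 (edgeR FDR 0.496) and 0.10 for ACO1 (0.371). BLVRA, which reduces the biliverdin that heme oxygenase makes, had 35.1 ± 2.64 CPM in siControl and rose to 55.1 ± 0.903 CPM, or 157% of the control level (edgeR FDR 1.59e-05). The falls went from 5 to 7 and the rises from 3 (without siControl replicate 2 or siMETTL3 replicate 1) to 6 with 1 library left out.

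Of 26 tested genes for lipid substrates and lipid peroxidation, 6 rose and 4 fell (38.5% called against 37.8% of all tested genes, median 0.06). With 1 library left out, 4 to 8 rose. The members that rose differ in what they do: ACSL3 (log2 fold change 0.50, edgeR FDR 2.66e-05) and SCD (0.34, 0.000233) handle and make monounsaturated fatty acids, while LPCAT3 (0.31, edgeR FDR 0.0168) places polyunsaturated ones into phospholipids. The LPCAT3 call did not hold when siMETTL3 replicate 1 was omitted (0.29, edgeR FDR 0.0688), nor when siMETTL3 replicate 3 was (0.31, 0.0535), and its log2 fold change shrank to 0.19 without siControl replicate 3. PEBP1, a scaffold for lipoxygenases, fell (-0.34, edgeR FDR 0.000225). SCD and PEBP1 each had 1 copy elsewhere in the genome at 95% identity or more.

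Of 20 tested genes of the quinone, biopterin and mevalonate routes, 4 rose and 4 fell (median -0.0070), and 3 or 4 rose and 4 or 5 fell with 1 library left out. GCH1, the entry enzyme of tetrahydrobiopterin synthesis, had 18.6 ± 0.637 CPM in siControl and fell to 11.4 ± 0.301 CPM in siMETTL3, or 61.5% of the control level (edgeR FDR 0.000104). COQ9, needed for ubiquinone synthesis, fell by 0.46 on the log2 scale (edgeR FDR 0.000722). DHODH, which reduces ubiquinone in mitochondria, was not past the threshold (-0.13, edgeR FDR 0.234), although it passed without siControl replicate 3 (-0.20, edgeR FDR 0.0449) and with the GC and length offset (-0.23, 0.0169). Without siControl replicate 1 it was -0.05.

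Of 21 tested genes for selenocysteine and selenoprotein synthesis, 7 fell and 3 rose (47.6% called, median 0.03), and 6 to 8 fell with 1 library left out. The list mixes genes listed for making or inserting selenocysteine with genes that encode selenoproteins. Both kinds were among the falls and among the rises, but SARS1 and SEPHS1 were the only falls of the first kind. Of that kind, SEPHS2 (log2 fold change 0.10, edgeR FDR 0.373), PSTK (0.03, 0.845), SEPSECS (-0.27, 0.0526), SECISBP2 (-0.03, 0.774) and TRNAU1AP (0.05, 0.681) did not pass. They were named after their values were seen. EEFSEC, the elongation factor that delivers selenocysteine to the ribosome, had 154 ± 15.7 CPM in siControl and rose to 239 ± 4.71 CPM in siMETTL3, or 155% of the control level (edgeR FDR 1.32e-05). SARS1, which charges the selenocysteine tRNA with serine (-0.38, edgeR FDR 0.000157), and SEPHS1 (-0.36, 0.000297), which had 1 near-identical copy in the genome, fell. Reads in shared stretches were counted for both genes, so values are uncertain where spans overlap, which holds among the genes named from these lists for MAT2A (with GGCX), TXNRD1 (EID3), BACH1 (GRIK1), LPCAT3 (C1S and EMG1) and EEFSEC (RUVBL1).

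**Figure D5:**
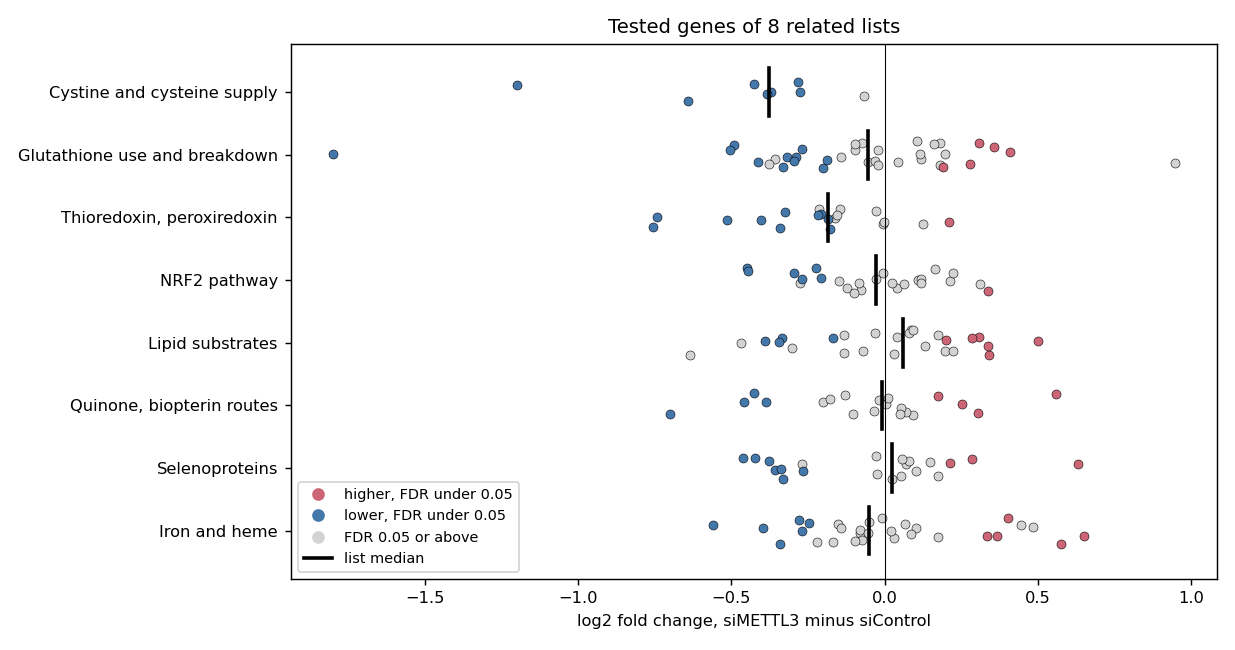
Log2 fold changes (horizontal axis, siMETTL3 minus siControl) of every tested gene in the 8 related lists (rows); each point is a gene, coloured by its call at an FDR under 0.05, and black bars are list medians. In the row of cystine and cysteine supply every gene lies below 0, with SLC7A11 at -1.20, while the other rows hold genes on both sides.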

How the data were processed

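The members, the gene lists and the tests were chosen with earlier results of these data known. The authors deposited raw read counts, 1 table per library, made per the file headers with featureCounts 1.5.3 and a protein-coding subset of GENCODE release 33. Per the file headers, the whole gene span was counted, introns included, reads over several genes were counted for each, and no strand option was set. The submitters' processing notes also name Trimmomatic 0.36, HISAT2 2.1.0 and GRCh38; each of 18999 spans compared overlapped a GENCODE release 44 gene with its symbol.

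Groups and replicate numbers came from the sample titles. Genes passing filterByExpr (15311) were scaled by TMM and tested with edgeR 4.0.16 (R 4.3.3; robust quasi-likelihood, all 6 libraries, no covariate), with Benjamini-Hochberg adjustment over all of them. SEs were derived from the fold change and the F statistic, and intervals use the fit's degrees of freedom. The test was checked on counts simulated from its own fitted model, with far fewer changed genes than were called here. The check does not show how the test behaves with as many changes as in these data. No libraries matched within sampling noise (chi-square per degree of freedom 3.05 to 16.1 within groups). Coding sequences were searched with blastn 2.17.0 against GRCh38.

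Alternatives were other scalings and filters, DESeq2 1.42.0, limma-voom (limma 3.58.1), non-robust dispersions, offsets for GC content with length and for intron length, genes without overlaps, the replicate number as a block, and each library left out. The text names the 10 members, METTL3, 15 further genes whatever their result, up to 3 called genes of smallest FDR per list, and the 3 genes most like the member of smallest FDR; 1 gene the rule selects is not reported here.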

Additional observations from a re-analysis of the deposited data

How the results depend on the processing

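METTL3, GPX4 and ACSL4 kept their direction and call in every fit that included them. The fit on genes without overlaps kept METTL3 by choice, although METTL3 overlaps TOX4. That fit is thus no check on shared reads for METTL3. Members with 1 library left out ranged from 1 to 3 higher and from 1 to 4 lower. On the 9518 genes without overlaps, which leaves out GSS, ACSL4, AIFM2 and FTH1, 1 member was higher and 2 were lower, and 1852 and 1898 of all genes were, against 2849 and 2937; fewer genes were tested there. GSR lost its call with total counts only (-0.149) and DESeq2 (-0.171). FTH1 lost its call with no filter (-0.502), the GC and length offset (-0.443), the intron length offset (-0.405) and limma-voom (-0.441). TFRC gained one with the GC and length offset (0.191) and with that offset and the replicate block (0.193). The cause of these was not tested. Changes of sign near 0, never past the threshold, were those of GCLC with the GC and length offset (0.00119) and with the block added (0.000729), of AIFM2 with total counts only (0.00355), without siControl replicate 2 (0.00828) and without siMETTL3 replicate 2 (0.0331), and of IREB2 with the GC and length offset (0.0359; 0.0361 with the block). With 1 library left out, log2 fold changes ranged from -0.352 to -0.2 for GSS, -0.199 to -0.147 for GSR, -0.674 to -0.296 for FTH1, 0.376 to 0.537 for HMOX1, 0.0782 to 0.164 for TFRC and -0.0635 to 0.0331 for AIFM2. Of 657 values of 35 other named genes under alternatives, 642 kept direction and call, 9 lost the call, 4 gained it and 2 changed sign. On genes without overlaps, 7 of 19 tested genes of glutathione use fell and 4 rose, 3 of 15 NRF2 genes fell and 0 rose, 3 of 18 lipid genes fell and 2 rose, 6 of 14 selenoprotein genes fell and 1 rose, and 5 of 22 iron genes fell and 3 rose. With the GC and length offset and the block, 9 genes of glutathione use rose and 6 fell; with that offset 2 thioredoxin genes rose, with the intron length offset 2 NRF2 genes rose and 8 fell, and with DESeq2 0 NRF2 genes and 3 genes of glutathione use rose.

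Replicate numbers paired the libraries weakly at most: deviations of same-numbered libraries from their group means correlated at 0.0401, 0.0494 and 0.0671. Those of differently numbered libraries correlated at -0.0642 to 0.0263, below all same-numbered pairs. Whether same-numbered libraries were handled together was not tested. A replicate block gave 6166 called genes against 5786, and the members' calls were the same 4 lower and 2 higher. The planned pseudocount alternative was not run, since the tables hold counts.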
